A study of Mus musculus with 16 samples.

Results

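Troponin is the calcium switch of striated muscle, and its subunits are encoded by small gene families with slow, fast and cardiac members. The 7 troponin genes described here (Tnnt1, Tnnt2 and Tnnt3 for troponin T, Tnni1 and Tnni3 for troponin I, Tnnc1 and Tnnc2 for troponin C) were taken by symbol from 56953 genes counted in 16 libraries, together with every splicing event listed for them. These events numbered 108 of 44612 in the authors' deposited rMATS table of P635L Ctr against WT Ctr, 108 of 44418 in that of P635L Tnpo3 and 91 of 41025 in that of WT Tnpo3. Tnni2, the fast skeletal troponin I, is not one of the 7 and is given beside them for comparison.

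The libraries came from left ventricles of male and female Bl6J mice, 4 mice in each of 4 groups. They carried either wild-type RBM20 (WT), a cardiac splicing factor, or its P635L mutation on both alleles, and each received 1e12 vector genomes of AAV9 in a tail vein at 4 weeks of age, with harvest 12 weeks later at 16 weeks. Groups are named by genotype and virus. The Tnpo3 virus carried the cDNA of a nuclear import receptor, and the Ctr virus carried pCAG-iCre-T2A-eGFP, so control hearts had received Cre recombinase and a fluorescent protein, and no group went without virus. The promoter of the Tnpo3 virus is not given in the sources used here.

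In the sarcomere, troponin T anchors the complex to tropomyosin on the actin filament, troponin I holds the filament in its blocked state, and troponin C binds calcium and releases that block. The adult ventricle uses cardiac troponin T (Tnnt2), cardiac troponin I (Tnni3) and the troponin C that heart and slow muscle share (Tnnc1). Tnnt1 and Tnni1 are the slow skeletal T and I genes, with Tnni1 also the fetal heart form, while Tnnt3, Tnni2 and Tnnc2 are the fast skeletal genes. Tnnt2 transcripts are themselves spliced into several forms that differ in short exons.

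Library totals ranged from 28493249 counts (WT Ctr replicate 1) to 85922669 counts (P635L Ctr replicate 2). Tnpo3 counts lay between 41.6 and 49.4 CPM (counts scaled to the library's TMM-adjusted total) in the 8 libraries with the Ctr virus and between 231 and 723 CPM in the 8 with the Tnpo3 virus. In 3 WT libraries (WT Ctr replicates 2 and 4, WT Tnpo3 replicate 4) over 10% of counts fell in 1 gene, ENSMUSG00000119584, and in 3 WT libraries (WT Ctr replicate 4, WT Tnpo3 replicates 2 and 4) Xist exceeded the Y-linked genes, which occurred in no mutant library. The summed level of 6 ventricular myocyte markers was 57687 to 70144 CPM in WT Ctr against 38857 to 40359 CPM in P635L Ctr, with 43118 to 50691 CPM in P635L Tnpo3. The 6 did not move as a set. At an edgeR adjusted p under 0.05, 3 were lower in P635L Ctr (Myh6, Myl2 and Myl3). With the virus in mutants 1 was higher (Myl3), and the median log2 fold change was 0. Means of Actc1, Ryr2 and Pln were lower in P635L Tnpo3 than in P635L Ctr. The summed level of 4 fibroblast markers was 618 to 896 CPM in WT Ctr, 1055 to 1549 CPM in P635L Ctr and 698 to 949 CPM in P635L Tnpo3. Their part in the results below was not tested. In whole tissue, fewer cells of a type and less RNA per cell cannot be told apart.

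Among the Tnnt2 exons followed below are 3 short coding exons of chromosome 1. They were chosen after their values were seen, and no troponin splicing event was called by the rule given below. The 3 exons are shown here in their spliced context with the alternative exon in capitals and 30 spliced bases on each side in lower case. All of them are a multiple of 3 bases long. The exons were matched to GENCODE M21 transcripts (GRCm38) by exact exon and intron lengths, because the deposited coordinates follow GRCm39.
Tnnt2 9-base exon (chr1:135850379-135850387, plus strand, GRCm38, exon 10 of 14 in Tnnt2-201): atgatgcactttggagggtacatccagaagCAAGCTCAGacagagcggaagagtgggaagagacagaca
Tnnt2 12-base exon (chr1:135842015-135842026, plus strand, GRCm38, exon 3 of 15 in Tnnt2-206): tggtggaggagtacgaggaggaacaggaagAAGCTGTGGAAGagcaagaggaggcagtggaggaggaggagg
Tnnt2 30-base exon after the 12-base exon (chr1:135843785-135843814, plus strand, GRCm38, exon 4 of 15 in Tnnt2-207): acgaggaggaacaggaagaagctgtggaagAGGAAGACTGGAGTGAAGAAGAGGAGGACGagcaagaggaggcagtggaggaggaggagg
The 30-base exon is the embryonic exon of cardiac troponin T, and both it and the 12-base exon lie in the part that encodes the acidic, variable N-terminal region of the protein. On the deposited coordinates the same exons lie at chr1:135778117-135778125, chr1:135769753-135769764 and chr1:135771523-135771552 (GRCm39, per the submitters' processing notes).

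Per kilobase of a reference transcript, the 3 cardiac genes stood far above the others in WT Ctr hearts. Tnnt2 had 11128 ± 813 (SD, n = 4) CPM per kilobase, Tnni3 9736 ± 1301 and Tnnc1 7961 ± 1448, and the SDs of neighbours in that order overlapped only for Tnni3 with each of the other 2. Tnnt1 followed at 27.3 ± 3.14, then Tnni2 at 2.995 ± 0.620, Tnnt3 at 1.08 ± 0.238 and Tnni1 at 0.386 ± 0.114 CPM per kilobase. Counts of Tnnc2 were 0 in 14 libraries and 1 in the other 2, so it was not tested, and 3 counts over the 4 libraries of a group with none, the most that a count of 0 allows, would be 0.0154 CPM in P635L Tnpo3 and 0.0216 CPM in WT Tnpo3. In P635L Ctr the lower genes stood in another order: Tnni2 at 23.4 ± 5.17, Tnnt3 at 10.7 ± 1.29, Tnnt1 at 6.34 ± 0.646 and Tnni1 at 0.815 ± 0.384 CPM per kilobase. By plain CPM the cardiac genes ranked 6 (Tnnt2), 14 (Tnni3) and 20 (Tnnc1) among all 56953 genes.

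In the comparison of genotypes under the control virus, 4 of the 6 tested troponin genes changed, 1 upwards (Tnnt3) and 3 downwards (Tnnt1, Tnni3 and Tnnc1), with edgeR's quasi-likelihood test at a Benjamini-Hochberg adjusted p under 0.05. Over all 18662 genes tested, 14.2% were called in that comparison, 7.07% upwards and 7.14% downwards. The median log2 fold change of the 6 was -0.52 and that of all genes -0.05. Slow troponin T was lower and fast troponin T higher, and the cardiac I and C genes were lower together, while cardiac troponin T showed no call.

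**Figure D1:**
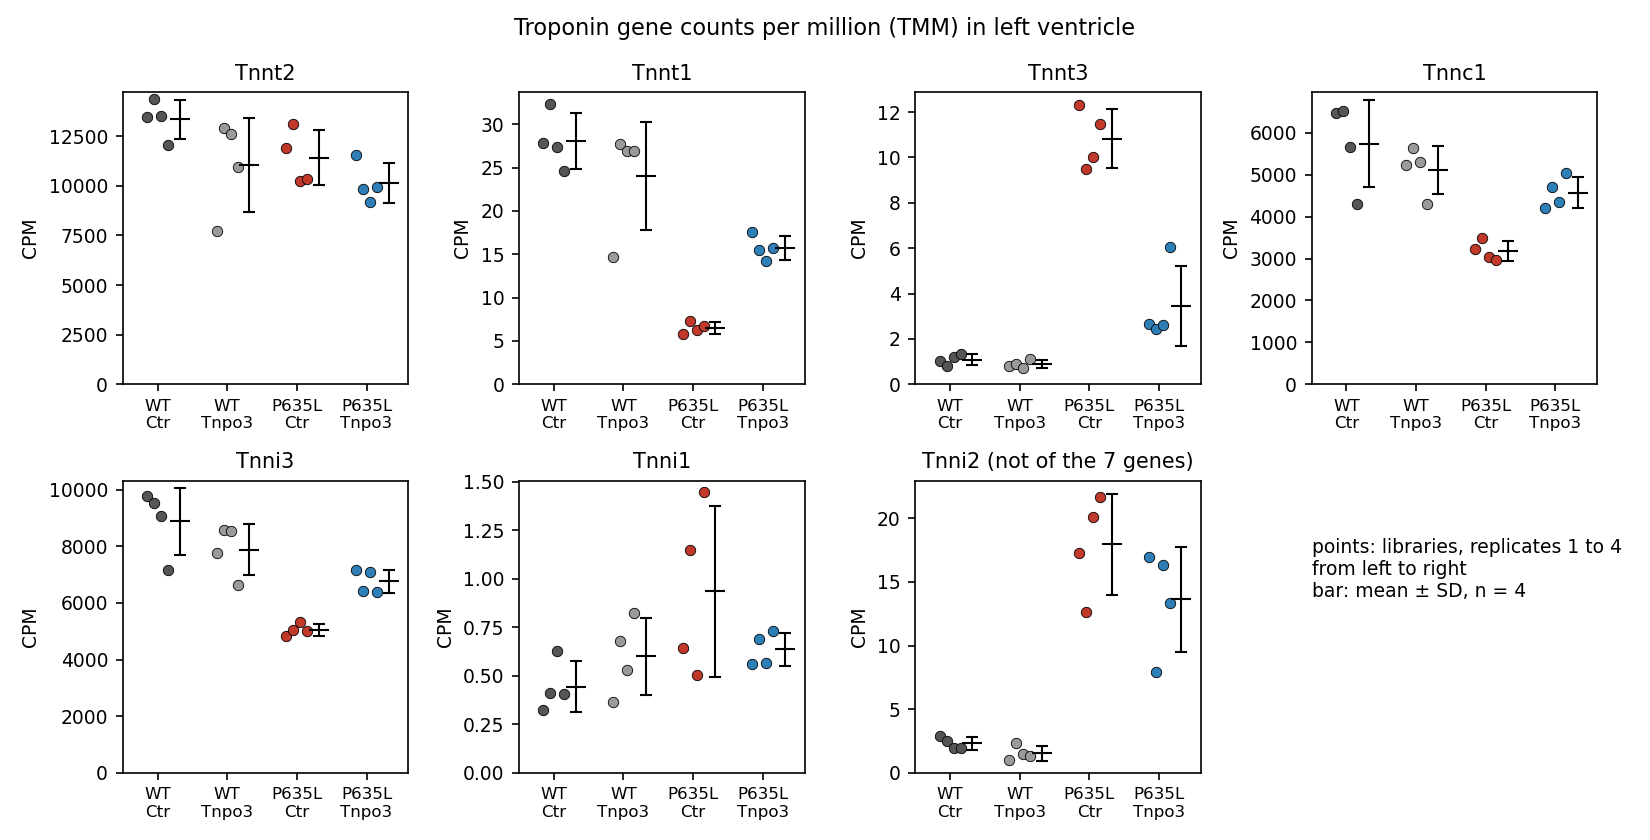
CPM of 6 troponin genes and of Tnni2 in each library (points, replicates 1 to 4 from left to right) of the 4 groups, with the mean ± SD (n = 4) beside them; every axis starts at 0. Tnnt1 lies at 5.76 to 7.33 CPM and Tnnt3 at 9.49 to 12.3 CPM in P635L Ctr, both clear of the other groups.

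Tnnt1 (ENSMUSG00000064179, chromosome 7, 4507569 to 4519381, GRCm39) stood at 27.8, 32.4, 27.4 and 24.6 CPM in replicates 1 to 4 of WT Ctr and at 5.76, 7.33, 6.27 and 6.71 CPM in those of P635L Ctr. The highest mutant library lay below the lowest WT Ctr library. In P635L Tnpo3 the values were 17.6, 15.5, 14.2 and 15.7 CPM, above every P635L Ctr library and below every WT Ctr library. WT Tnpo3 gave 14.7, 27.7, 26.9 and 26.9 CPM, so replicate 1 of that group lay in the range of the treated mutants and the other 3 in that of WT Ctr.

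The log2 fold change of Tnnt1 between P635L Ctr and WT Ctr was -2.10 (SE 0.17, edgeR adjusted p = 2.04e-07). The Tnpo3 virus raised it in mutant hearts by 1.27 on the log2 scale (SE 0.17, edgeR adjusted p = 0.000301), a fitted 2.41-fold difference, with 4 of 4 libraries above every P635L Ctr library. P635L Tnpo3 hearts stayed below WT Ctr, by -0.83 on the log2 scale (SE 0.16, edgeR adjusted p = 0.00693), which became -0.77 (edgeR adjusted p = 0.0524) without the 3 libraries rich in ENSMUSG00000119584. Against WT Tnpo3 the value was -0.61 (SE 0.16, edgeR adjusted p = 0.0424), with overlapping groups. That call was lost when WT Ctr replicate 3, WT Tnpo3 replicate 2, 3 or 4, or any 1 of the 8 mutant libraries was left out, and the value was -0.39 (edgeR adjusted p = 0.274) without the 3 libraries with more Xist. The effect of the virus on Tnnt1 differed between genotypes, with an interaction of 1.49 on the log2 scale (SE 0.23, edgeR adjusted p = 0.00525).

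Tnnt3 (ENSMUSG00000061723, chromosome 7, 142052573 to 142069746) moved the other way. It stood at 1.01, 0.784, 1.21 and 1.33 CPM in WT Ctr against 12.3, 9.49, 10.01 and 11.5 CPM in P635L Ctr, a 9.87-fold difference. In P635L Tnpo3 it was 2.66, 2.44, 2.63 and 6.07 CPM, so that replicate 4 lay apart and all 4 libraries lay between WT Ctr and P635L Ctr. WT Tnpo3 libraries held 0.727 to 1.12 CPM, within or just under the range of WT Ctr.

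The log2 fold change of Tnnt3 was 3.30 (SE 0.29, edgeR adjusted p = 4.67e-07) for P635L Ctr against WT Ctr. With the Tnpo3 virus in mutants it was -1.65 (SE 0.26, edgeR adjusted p = 0.00130), and -2.07 (edgeR adjusted p = 1.92e-05) when P635L Tnpo3 replicate 4 was left out. The gene stayed above WT Ctr by 1.66 (SE 0.28, edgeR adjusted p = 0.00217) and above WT Tnpo3 by 1.96 (SE 0.28, edgeR adjusted p = 0.000658). Its interaction of virus and genotype, -1.34 (edgeR adjusted p = 0.149), did not pass, but did without P635L Tnpo3 replicate 4, at -1.77 (edgeR adjusted p = 0.00627).

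Tnnt3 overlaps Prr33 on the other strand, and whether strand was used in counting is not given in the sources used here. Prr33 held 20.02 CPM on average in WT Ctr against 15.6 CPM in P635L Ctr, with a log2 fold change of -0.365 (edgeR adjusted p = 0.306). Reads across Tnnt3 splice junctions gave the same order: at its deepest event, the skipping of a 41-base exon, the 4 listed libraries held 0 to 13 junction reads in WT Ctr, 1 to 11 in WT Tnpo3, 153 to 339 in P635L Ctr and 33 to 143 in P635L Tnpo3.

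Tnnt2 (ENSMUSG00000026414, chromosome 1, 135764092 to 135779998), the bulk of cardiac troponin T, had 13462, 14389, 13528 and 12033 CPM in WT Ctr against 11904, 13132, 10248 and 10359 CPM in P635L Ctr. These ranges overlapped, and the change on the log2 scale was -0.23 (SE 0.15, edgeR adjusted p = 0.354). P635L Tnpo3 libraries held 9171 to 11558 CPM, below every WT Ctr library, at -0.40 on the log2 scale (SE 0.15, edgeR adjusted p = 0.172). In the authors' deposited table from DESeq2 that comparison was -0.37 with an adjusted p of 0.0207. WT Tnpo3 replicate 1 was the lowest of all 16 libraries for this gene, at 7736 CPM.

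Within the troponin T family, per length, Tnnt2 made up 99.7% to 99.8% of the total in the mean of every group. The share of Tnnt1 was 0.244% ± 0.0121 (SD, n = 4) in WT Ctr, 0.0671% ± 0.00830 in P635L Ctr and 0.181% ± 0.00295 in P635L Tnpo3. That of Tnnt3 was 0.00980% ± 0.00281, 0.114% ± 0.0199 and 0.0408% ± 0.0212 in the same groups. The skeletal forms thus exchanged places in P635L Ctr, where fast exceeded slow in every library. The ratio of Tnnt1 to Tnnt3 counts was 18.5 to 41.3 in WT Ctr, 0.468 to 0.772 in P635L Ctr and 2.59 to 6.61 in P635L Tnpo3, with no overlap between these 3 groups.

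**Figure D2:**
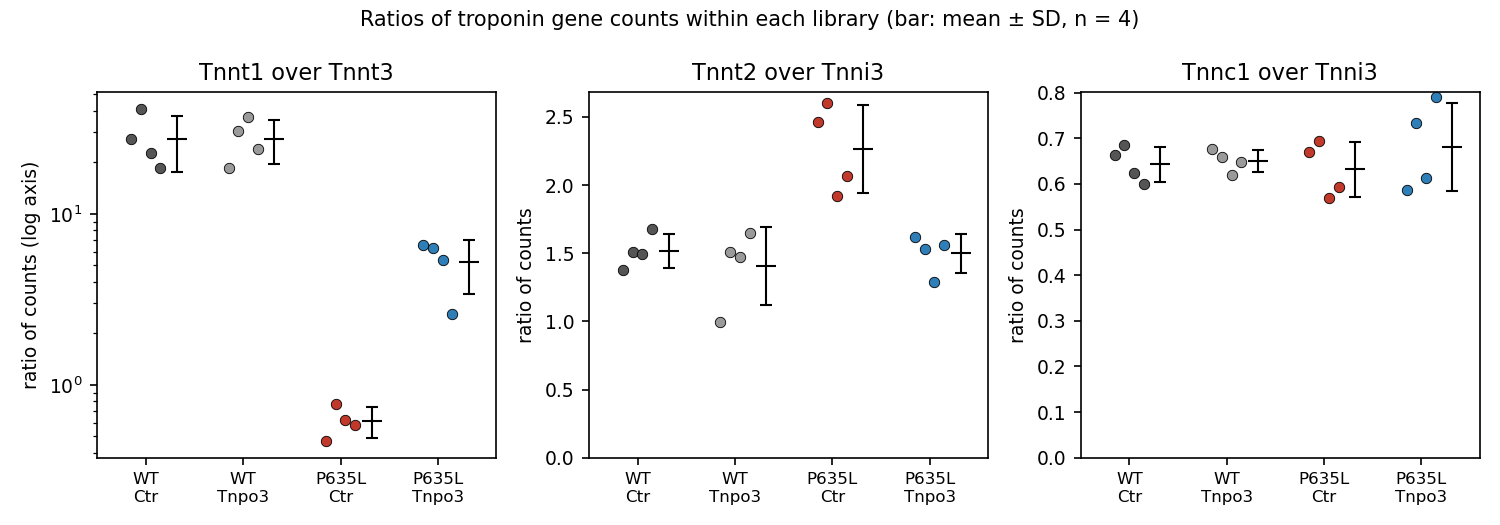
Ratios of counts of 2 troponin genes within each library (points) of the 4 groups, with the mean ± SD (n = 4); the first axis is logarithmic and the others start at 0. Tnnt1 over Tnnt3 lies below 1 in P635L Ctr and at 2.59 to 6.61 in P635L Tnpo3, and Tnnc1 over Tnni3 has overlapping ranges in all 4 groups.

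Tnni3 (ENSMUSG00000035458, chromosome 7, 4521304 to 4527228), whose product is the cardiac inhibitory subunit, had 9774, 9519, 9071 and 7154 CPM in WT Ctr against 4829, 5045, 5328 and 5002 CPM in P635L Ctr. The groups did not overlap, and the log2 fold change was -0.81 (SE 0.13, edgeR adjusted p = 0.000234). P635L Tnpo3 libraries held 7151, 6425, 7095 and 6376 CPM, above all P635L Ctr libraries. The log2 fold change with the virus in mutants was 0.42 (SE 0.13, edgeR adjusted p = 0.0680) and did not pass the test, although it did without the 3 libraries rich in ENSMUSG00000119584, at 0.42 (edgeR adjusted p = 0.00594), without WT Ctr replicate 4 (0.0334) or WT Tnpo3 replicate 4 (0.0368), and by DESeq2 (adjusted p = 0.00375). Against WT Ctr, P635L Tnpo3 differed by -0.39 (SE 0.13, edgeR adjusted p = 0.1002), with the highest treated library just under the lowest WT Ctr library. This difference passed without WT Ctr replicate 4, at -0.48 (edgeR adjusted p = 0.0329), without the 3 libraries rich in ENSMUSG00000119584 (0.0330), without the 3 with more Xist (0.0110) and by DESeq2 (adjusted p = 0.0187). The authors' deposited table from DESeq2 gives it as -0.37 with an adjusted p of 0.0492.

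Dnaaf3 overlaps Tnni3 on the same strand, so reads of their shared bases cannot be assigned to either. Dnaaf3 held 12.4 CPM on average in WT Ctr against 6.73 CPM in P635L Ctr, a log2 fold change of -0.88 (edgeR adjusted p = 0.00906), at a level far below that of Tnni3. On the other side of Tnni3, Tnnt1 begins 1922 bases away. Both neighbours were lower in P635L Ctr.

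Tnni1 (ENSMUSG00000026418, chromosome 1, 135707172 to 135738727), the slow and fetal form, was low in every library. Its values were 0.326, 0.413, 0.630 and 0.406 CPM in WT Ctr, then 0.645, 1.15, 0.502 and 1.45 CPM in P635L Ctr and 0.561 to 0.732 CPM in P635L Tnpo3. The ranges of WT Ctr and P635L Ctr overlapped, and the change of 1.07 on the log2 scale (SE 0.38, edgeR adjusted p = 0.0699) did not pass the test. It passed without P635L Ctr replicate 3, at 1.28 (edgeR adjusted p = 0.0351).

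Tnni2, given for comparison, was higher in P635L Ctr as Tnnt3 was, and showed no call for the virus in mutants. It stood at 2.89, 2.48, 1.92 and 1.91 CPM in WT Ctr, at 17.3, 12.7, 20.1 and 21.7 CPM in P635L Ctr and at 17.0, 7.90, 16.3 and 13.3 CPM in P635L Tnpo3. The mutant groups overlapped. The log2 fold change was 2.97 (SE 0.28, edgeR adjusted p = 1.42e-06) for P635L Ctr against WT Ctr and -0.40 (SE 0.25, edgeR adjusted p = 0.426) for the virus in mutants, where P635L Tnpo3 remained 2.57 above WT Ctr (SE 0.28, edgeR adjusted p = 4.26e-05). The difference between Tnni2 and Tnnt3 in their response to the virus was not tested. Tnni2 lies 54425 bases from Tnnt3 on chromosome 7.

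Tnnc1 (ENSMUSG00000091898, chromosome 14, 30930269 to 30933686), the calcium-binding subunit, had 6479.8, 6529, 5658 and 4294 CPM in WT Ctr against 3235, 3499, 3028 and 2972 CPM in P635L Ctr. The groups did not overlap, and the log2 fold change was -0.85 (SE 0.14, edgeR adjusted p = 0.000397). P635L Tnpo3 libraries held 4199, 4705, 4349.8 and 5037 CPM, all above P635L Ctr and overlapping WT Ctr only through its replicate 4. The virus raised the gene in mutants by 0.52 (SE 0.14, edgeR adjusted p = 0.0420). This call was lost when any 1 of the 8 mutant libraries, WT Ctr replicate 3 or WT Tnpo3 replicate 3 was left out. The edgeR adjusted p was then up to 0.143, and it was 0.0597 with no filter on low counts. Dropping the 3 WT libraries in which 1 gene took over 10% of counts kept the call, at 0.52 (edgeR adjusted p = 0.0034). So did dropping the 3 with more Xist, at 0.53 (edgeR adjusted p = 0.0042). Against WT Ctr the difference was -0.33 (SE 0.14, edgeR adjusted p = 0.215). It passed without the 3 libraries with more Xist, at -0.41 (edgeR adjusted p = 0.0356). Without the 3 libraries rich in ENSMUSG00000119584 it was -0.37 (edgeR adjusted p = 0.118) and did not pass. Nisch, which overlaps Tnnc1 on the other strand, held 246 and 239 CPM on average in WT Ctr and P635L Ctr.

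The cardiac I and C genes kept nearly the same proportion to each other, while their proportion to cardiac T shifted. The ratio of Tnnc1 to Tnni3 counts averaged 0.643 ± 0.0385 (SD, n = 4) in WT Ctr, 0.631 ± 0.0598 in P635L Ctr and 0.681 ± 0.0965 in P635L Tnpo3, with overlapping ranges. The ratio of Tnnt2 to Tnni3 counts was 1.38 to 1.68 in WT Ctr, 1.92 to 2.60 in P635L Ctr and 1.29 to 1.62 in P635L Tnpo3. All 4 P635L Ctr libraries lay above all others in that ratio.

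**Figure D3:**
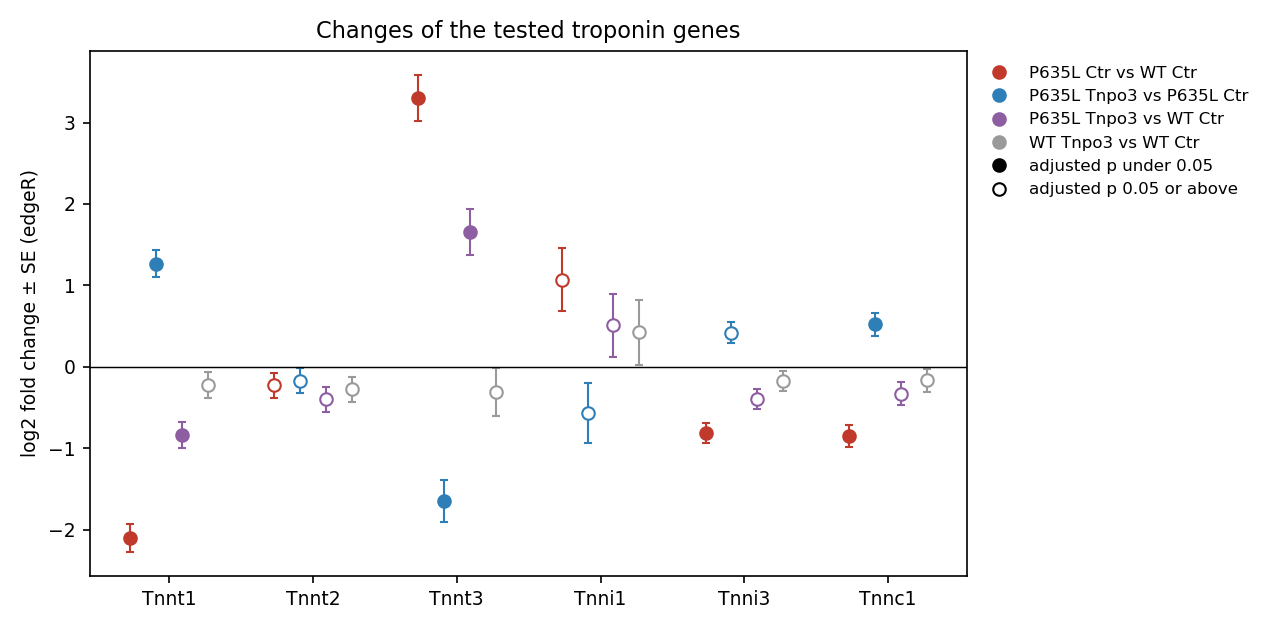
Log2 fold changes ± SE from edgeR (n = 4 libraries per group) of the 6 tested troponin genes in 4 comparisons; filled points have an adjusted p under 0.05. Tnnt1 and Tnnt3 lie on opposite sides of 0 in P635L Ctr against WT Ctr (-2.10 and 3.30) and cross over with the virus in mutants (1.27 and -1.65), 2 comparisons that share the P635L Ctr libraries.

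Across the comparisons, 3 of the 6 tested genes were called for the virus in mutants (Tnnt1 and Tnnc1 upwards, Tnnt3 downwards), where 3.88% of all genes were called, 1.63% upwards and 2.25% downwards. Between P635L Tnpo3 and WT Ctr 2 of 6 were called (Tnnt3 upwards, Tnnt1 downwards), against 3.07% of all genes, 1.49% upwards and 1.58% downwards. Between P635L Tnpo3 and WT Tnpo3 Tnnt3 was again called upwards and Tnnt1 downwards, against 3.72%, 1.72% upwards and 2% downwards. For the interaction 1 of 6 was called (Tnnt1, upwards), against 0.504%, 0.295% upwards and 0.209% downwards. At an unadjusted edgeR p under 0.05 stood 4 of 6 there, against 12.4% of all genes. Among them were Tnni3 at 0.59 (edgeR adjusted p = 0.171) and Tnnc1 at 0.69 (edgeR adjusted p = 0.141). That count was 5 for P635L Ctr against WT Ctr (28.1% of all genes) and 4 for the virus in mutants (18.4%). For P635L Tnpo3 it was 5 against WT Ctr (18.3%) and 2 against WT Tnpo3 (20.1%). With the virus in WT hearts, edgeR called 0 of 6, with 0 of 6 at an unadjusted p under 0.05 (3.2% of all genes), and DESeq2 also called 0; over all genes 0.00536% were called, 1 gene in all. The log2 fold changes of the 6 in that comparison ran from -0.31 (Tnnt3) to 0.42 (Tnni1). These comparisons share control libraries, so their values are not independent of each other.

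Because Tnnt1, Tnni3 and Tnnc1 were lower together in P635L Ctr, the 250 bases before their RefSeq starts (GRCm38.p6) are shown, with every CANNTG element, the E-box core, in capitals. RefSeq starts of the supplied table matched 6 of the 7 genes (not Tnnt3).
Tnnt1 (chr7:4515976-4516225, minus strand): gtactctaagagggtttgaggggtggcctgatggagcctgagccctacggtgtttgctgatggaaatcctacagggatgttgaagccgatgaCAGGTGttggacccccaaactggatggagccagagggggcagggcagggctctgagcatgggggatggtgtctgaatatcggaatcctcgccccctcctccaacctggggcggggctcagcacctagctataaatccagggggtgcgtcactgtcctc
Tnni3 (chr7:4522529-4522778, minus strand): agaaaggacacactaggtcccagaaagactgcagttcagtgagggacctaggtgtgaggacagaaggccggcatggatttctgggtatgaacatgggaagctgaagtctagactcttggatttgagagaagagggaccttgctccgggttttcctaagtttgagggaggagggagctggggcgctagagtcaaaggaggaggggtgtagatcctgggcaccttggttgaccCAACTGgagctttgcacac
Tnnc1 (chr14:31208062-31208311, plus strand): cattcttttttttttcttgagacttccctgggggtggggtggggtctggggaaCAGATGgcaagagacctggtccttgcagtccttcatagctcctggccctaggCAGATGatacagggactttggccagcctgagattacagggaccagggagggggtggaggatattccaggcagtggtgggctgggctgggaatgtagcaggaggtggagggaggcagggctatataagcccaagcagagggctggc
CANNTG reads the same on both strands and occurred 1, 1 and 2 times in these windows, and in 66.2% of the 32851 windows of that length in the table. It also occurred in the windows of the other matched genes: 4 and 2 times for Tnni1, 4 and 1 for Tnnt2, and 2 for Tnnc2. The M-CAT element CATTCCT (in 4.51% of windows), GATAA (22.6%), the MEF2 element (2.92%) and the CArG element (1.47%) were searched on both strands and were not found in the 3 windows. A Tnnt2 window held CATTCCT 1 time and GATAA 2 times. These are matches of letters and not measured binding.

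Splicing was examined in all listed events of the 7 genes. In the table of P635L Ctr against WT Ctr, 54 events belonged to Tnnt2, 19 to Tnnt1, 17 to Tnnt3, 16 to Tnni3 and 2 to Tnnc1, with none listed for Tnni1 and Tnnc2. Of the 108, 82 averaged 10 or more junction reads in each group and were tested, none of them from Tnnt3. The deepest event of each of the other 4 genes was near full inclusion throughout: 1 in every library for Tnnt2 (a 41-base exon, 103498 to 413176 junction reads) and for Tnni3 (a 90-base exon), 0.994 to 1 for Tnnt1 (a 110-base exon), and 0.982 to 0.989 for Tnnc1 (an alternative acceptor). Of the 82, 28 had a mean inclusion level between 0.05 and 0.95.

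An event was called at an edgeR adjusted p under 0.05 and a difference of at least 0.1 in mean inclusion level, the length-corrected fraction of transcripts that carry the exon. By this rule 0 of 82 troponin events were called between P635L Ctr and WT Ctr, against 0.161% of all 34810 events tested, or 0.256% with no minimum difference. With no minimum difference 0 of 82 were called as well. Limma on the log2 read ratios also called 0, and 11 of the 82 had an unadjusted edgeR p under 0.05, against 7.57% of all events tested. In the authors' deposited table, 11 of the 82 had an rMATS FDR under 0.05, against 6.17% of all events tested, and 1 of these (the 9-base exon of Tnnt2) also differed by at least 0.1, against 2.5%. Of these 11 events, 10 belonged to Tnnt2 and 1 to Tnnc1, and in Tnnt2 several share the same exons. The exons followed below were chosen after their values were seen. Groups of 4 libraries that do not overlap always give the smallest exact permutation p, 0.0286. For exons chosen in this way that p is no support, and the share of all events that reach it was not counted.

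**Figure D4:**
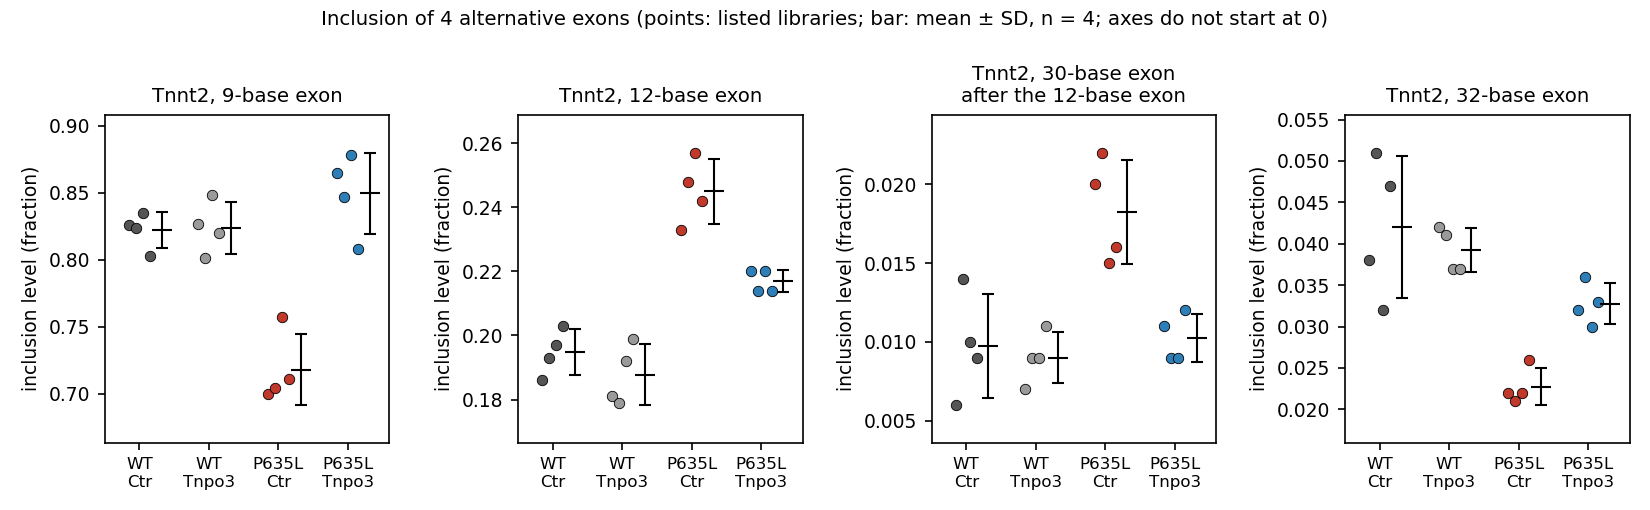
Inclusion level (fraction, axes not starting at 0) of 4 alternative exons of Tnnt2 in each listed library (points) of the 4 groups, with the mean ± SD (n = 4). The 9-base exon lies at 0.7 to 0.757 in P635L Ctr and at 0.801 or above in the other 3 groups.

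The 9-base exon of Tnnt2 was included in most transcripts of every heart and less in P635L Ctr. Its inclusion level was 0.826, 0.824, 0.835 and 0.803 in the listed libraries of WT Ctr and 0.7, 0.704, 0.757 and 0.711 in those of P635L Ctr. In P635L Tnpo3 it was 0.865, 0.847, 0.878 and 0.808, and in WT Tnpo3 0.827, 0.801, 0.848 and 0.820. All P635L Ctr libraries lay below all 12 others, and the remaining groups overlapped. Between 48292 and 237128 junction reads per library stood behind these values.

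The difference between P635L Ctr and WT Ctr was -0.104 (edgeR adjusted p = 0.344, exact permutation p = 0.0286, the smallest that 4 against 4 libraries can give, two-sided). The authors' deposited table gives it an rMATS FDR of 7.82e-14. Without the third listed library of P635L Ctr it was -0.117 and passed edgeR (adjusted p = 0.0103). With every library kept, the difference of -0.104 passed edgeR when events needed a mean of only 1 junction read (adjusted p = 0.01001). Between P635L Tnpo3 and P635L Ctr it was 0.132 (edgeR adjusted p = 0.428, exact permutation p = 0.0286). Against WT Ctr, P635L Tnpo3 differed by 0.0275 (edgeR adjusted p = 0.690), with an rMATS FDR of 0.0788 in the authors' deposited table, and WT Tnpo3 by 0.0020 (edgeR adjusted p = 0.992).

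Read between the 11-base and 90-base exons, the 12-base exon of Tnnt2 was in the minority and had its highest levels in P635L Ctr. In that reading its level was 0.186, 0.193, 0.197 and 0.203 in WT Ctr, 0.233, 0.248, 0.257 and 0.242 in P635L Ctr and 0.220, 0.214, 0.220 and 0.214 in P635L Tnpo3. These 3 groups did not overlap, while WT Tnpo3, at 0.179 to 0.199, overlapped WT Ctr. The difference between P635L Ctr and WT Ctr was 0.0502 (edgeR adjusted p = 0.678, exact permutation p = 0.0286), with an rMATS FDR of 0.00185 in the authors' deposited table. The corresponding FDR for P635L Tnpo3 was 0.608 in the authors' deposited table. Between P635L Tnpo3 and P635L Ctr the difference was -0.028 (edgeR adjusted p = 0.940, exact permutation p = 0.0286). The same exon was near full inclusion in other readings, where WT Ctr and P635L Ctr overlapped. With the 30-base exon downstream its level was 0.975 to 0.981 in WT Ctr against 0.960 to 0.981 in P635L Ctr. With a longer upstream exon it was 0.982 to 0.997 against 0.976 to 0.998.

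The embryonic 30-base exon of Tnnt2 was rare in all hearts. Read after the 12-base exon, as printed above, its level was 0.006 to 0.014 in WT Ctr, 0.015 to 0.022 in P635L Ctr, 0.009 to 0.012 in P635L Tnpo3 and 0.007 to 0.011 in WT Tnpo3. The P635L Ctr libraries lay above all others, on 96 to 401 inclusion reads each, with a difference of 0.0085 from WT Ctr (edgeR adjusted p = 0.564, exact permutation p = 0.0286). The authors' deposited table gives an rMATS FDR of 1.11e-06. Between P635L Tnpo3 and P635L Ctr the difference was -0.008 (edgeR adjusted p = 0.867, exact permutation p = 0.0286). Read after the 11-base exon the same exon had levels of at most 0.005 in every library, and there the rMATS FDR was 1 in the authors' deposited table. In that reading it stood at 0.001 to 0.002 in WT Ctr and P635L Tnpo3, 0.003 to 0.005 in P635L Ctr and 0.001 to 0.003 in WT Tnpo3. P635L Ctr differed from WT Ctr there by 0.0025 (edgeR adjusted p = 0.191). This difference passed edgeR without P635L Ctr listed library 3 (adjusted p = 0.0156) or 4 (0.00299). It also passed edgeR when events needed a mean of only 1 junction read (adjusted p = 0.00713).

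A 32-base exon near the start of Tnnt2 (chr1:135765886-135765917, GRCm39), which lies outside the coding part of its matched transcript, had its lowest levels in P635L Ctr. Read with the longer of 2 downstream exons, its level was 0.032 to 0.051 in WT Ctr, 0.021 to 0.026 in P635L Ctr, 0.030 to 0.036 in P635L Tnpo3 and 0.037 to 0.042 in WT Tnpo3. In that reading P635L Ctr lay below all other libraries, and P635L Tnpo3 overlapped WT Ctr but not WT Tnpo3. The difference between P635L Ctr and WT Ctr was -0.0192 (edgeR adjusted p = 0.420, exact permutation p = 0.0286), with an rMATS FDR of 2.53e-12 in the authors' deposited table. Between P635L Tnpo3 and P635L Ctr it was 0.01 (edgeR adjusted p = 0.869, exact permutation p = 0.0286).

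A 132-base exon of Tnni3 (chr7:4523962-4524093, GRCm39) had the largest difference in inclusion level among the tested troponin events in the comparison of genotypes under the control virus and in that of the virus in mutants, on few reads. The difference was 0.138 between P635L Ctr and WT Ctr (edgeR adjusted p = 0.841, on 13.8 junction reads per library on average) and -0.216 for the virus in mutants (edgeR adjusted p = 0.938, on 13.4 reads). Levels ran from 0.462 to 1 in WT Ctr, from 0.586 to 1 in P635L Ctr and from 0.2 to 1 in P635L Tnpo3, so the groups overlapped widely.

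Of 13 Tnnt1 events tested between P635L Ctr and WT Ctr, 0 were called, and the largest difference was 0.1175 in size. At an unadjusted edgeR p under 0.05 stood 2 of the 13, against 7.57% of all events tested. For the acceptor choice and the exon given next, the levels of the groups overlapped. An acceptor choice that adds 3 bases to a 19-base exon of Tnnt1 had levels of 0.509, 0.527, 0.544 and 0.398 in WT Ctr and 0.294, 0.499, 0.460 and 0.327 in P635L Ctr, which overlapped, on 30 to 178 junction reads per library. The 33-base exon of Tnnt1 stood at 0.922 to 1 in WT Ctr and 0.902 to 0.939 in P635L Ctr. The 1 event of Tnnc1 among the 11, its alternative acceptor, differed by -0.0035 with an rMATS FDR of 0.0366 in the authors' deposited table.

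In the other comparisons edgeR called 0 of 64 tested events for the virus in mutants, against 0.0239% of all events, and 0 of 64 with no minimum difference, against 0.0307%. At an unadjusted edgeR p under 0.05 stood 10 of the 64, against 5.63% of all events. For P635L Tnpo3 against WT Ctr 0 of 86 were called, against 0.0346%, and 1 of 86 passed edgeR with no minimum difference, against 0.0635%. That event was a 64-base exon of Tnnt2 at a level of 1 in every WT Ctr library and 0.998 to 1 in P635L Tnpo3, a difference of -0.001 (edgeR adjusted p = 2.05e-05), with 0 skipping reads in WT Ctr and 2 to 25 in P635L Tnpo3; its rMATS FDR was 1 in the authors' deposited table. At an unadjusted edgeR p under 0.05 stood 5 of the 86, against 7.44% of all events. With the virus in WT hearts 0 of 79 were called, against 0%, and 0 of 79 with no minimum difference, against 0.00627%, while 1 of the 79 had an unadjusted edgeR p under 0.05, against 5.34%. Limma called 0 in each of these 3. By rMATS FDR in the authors' deposited table, 1 of the 86 passed (a pair of mutually exclusive Tnnt2 exons, at a difference of -0.0282), against 5.12% of all events, and none with a difference of at least 0.1, against 2.1%. For the virus in WT hearts 0 of 79 passed in the authors' deposited table, against 2.11% of all events, or 0.928% with that difference.

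Partners of troponin on the thin filament were called in both directions. Of 18 listed genes (actins, tropomyosins, capping and length-setting proteins), 2 rose in P635L Ctr against WT Ctr (Tpm2, the beta tropomyosin, 2.03 on the log2 scale, and Tnni2) and 2 fell (Tmod4, a tropomodulin that caps the filament, -1.39, and Tnni3k, a kinase that binds cardiac troponin I, -0.78). These 4 of 18 stand against 14.2% of all genes, and the median of the 18 was -0.05, as over all genes. With the virus in mutants 1 rose (Tmod4, 0.95, edgeR adjusted p = 0.00105) and 0 fell, against 3.88% of all genes called. The lists were chosen with earlier results of these data known.

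Fast fibre genes moved beside Tnnt3 in part. Of 13 listed, 10 were tested, 5 rose in P635L Ctr (Casq1, the fast calcium store protein, 4.98; Mybpc2, fast myosin-binding protein C, 3.83; Myl1, a fast alkali light chain, 3.29; Tnni2; and Myoz1, 1.10) and 1 fell (Eno3, -0.70). Over all genes 7.07% rose and 7.14% fell, and the median of the 10 was 0.89. With the virus in mutants 3 fell (Casq1, -1.84; Mybpc2, -1.82; Myl1, -1.74) and 0 rose, against 2.25% and 1.63% of all genes. The fast myosins Myh1, Myh2 and Myh4 were at or below 0.0948 CPM in the mean of every group. The summed level of 8 skeletal fibre markers, nearly all of it Ckm, which the heart also expresses, was 1143 to 1509 CPM in WT Ctr against 526 to 822 CPM in P635L Ctr.

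Slow fibre and fetal heart genes divided. Of 10 tested, 4 fell in P635L Ctr (Myh7b, -8.20; Myh7, the slow myosin, -2.62; Myl3, -1.39; Myl2, -0.61) and 2 rose (Nppa, 4.84, and Nppb, 1.26, the natriuretic peptides), against 7.14% and 7.07% of all genes, with a median of -0.36. With the virus in mutants Myh7b (5.85), Myh7 (1.39) and Myl3 (0.97) rose and Nppa (-1.97) fell, against 1.63% and 2.25% of all genes. Myl7, an atrial light chain, was not tested, at 0.409 CPM or less in the mean of every group.

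Of 11 listed splicing regulators, Celf1 (-0.50, edgeR adjusted p = 0.00435) and Rbfox1 (-1.19, edgeR adjusted p = 0.00171) fell in P635L Ctr and 0 rose. These 2 of 11 stand against 14.2% of all genes called. A link between these genes and the Tnnt2 exons was not tested. Rbm20 itself was not called between P635L Ctr and WT Ctr (-0.06, edgeR adjusted p = 0.878).

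The genes whose log2 CPM followed each troponin gene most closely over the 16 libraries were ranked by Pearson's r among 12490 genes, as a description that the group differences dominate. Closest to Tnnt1 were Myh7b (0.97), Etfb (0.95) and Magt1 (0.95), with Myh7b at 225, 141, 0.764 and 44.3 CPM on average in WT Ctr, WT Tnpo3, then P635L Ctr, then P635L Tnpo3. Closest to Tnnt3 were Mybpc2 (0.99), Ppm1e (0.98) and Mmp23 (0.97). Closest to Tnni3 were Gm30556 (0.97), Tesc (0.96) and Pop5 (0.96). Closest to Tnnc1 were Dctpp1 (0.97), Pop5 (0.96) and Myl3 (0.96), the ventricular essential light chain. Closest to Tnnt2, which showed no call, were Raly (0.91), Rrp1 (0.87) and Aamp (0.86). Tnni1 and Tnnc2 were too low for this ranking.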

How the data were processed

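The authors deposited raw counts per gene for 16 libraries, made with STAR 2.7.9a and featureCounts 2.0.6 on GRCm39 per the submitters' processing notes. Per the file headers they also deposited DESeq2 tables with log2 fold changes and p-values, and rMATS tables with junction reads, inclusion levels, their difference as a score from WT Ctr to the other group, and FDR values; the order of libraries within a group is not given there. Counts were scaled by TMM and tested with edgeR 4.0.16 under R 4.3.3 (its quasi-likelihood test after filterByExpr, with 1 mean per group, 12 residual degrees of freedom, two-sided), with p-values adjusted over all 18662 genes. Splicing events were tested by edgeR on inclusion and skipping reads with a coefficient per library, limma 3.58.1 being an alternative; DESeq2 1.42.0 was the alternative for genes. P635L Tnpo3 against P635L Ctr used the 35475 events found with the same coordinates in both mutant tables. An SE is the log2 fold change over the root of its F statistic. Symbols were matched for all but 4891 of 56953 genes. Both tests were also run on simulated data, with an outcome not given here. Simulated events had fewer reads than the most deeply read Tnnt2 exons, so that run does not bear on those. Named are the 7 members, the 3 genes most correlated with each, called genes of 4 lists, and the deepest event of each member. No event was called, so the other events named were chosen after their values were seen. Members and lists were chosen with earlier results of these data known. The labels give 4 mice per group and no batch, and the sex of single mice was not used.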

Additional observations from a re-analysis of the deposited data

Results flagged for a closer look

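Dixon's test at its 95% level, which flags about 1 set in 20 by chance, was run on sets of 4 libraries. The sets were the CPM of each of the 6 tested genes in each of the 4 groups. They also included the inclusion levels of the named Tnnt2 and Tnnt1 exons and acceptor in each group, in their deepest reading. In 4 of these sets 1 library lay far from the others, and over so many sets some flags arise by chance. Tnnt1 stood at 14.66 CPM in WT Tnpo3 replicate 1, against 26.86 to 27.72 CPM in the other 3 libraries. Tnnt3 stood at 6.067 CPM in P635L Tnpo3 replicate 4, against 2.437 to 2.66 CPM in the other 3. The inclusion level of the Tnnt2 30-base exon read after the 11-base exon was 0.001 at the first listed position of WT Ctr and at the third of P635L Tnpo3, against 0.002 in the rest of each group, a gap of the last deposited decimal. The effect of the Tnpo3 virus on Tnnt1 differed between P635L and WT hearts, with an interaction of 1.49 on the log2 scale (SE 0.23, edgeR adjusted p = 0.00525).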

How the results depend on the processing

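Under P635L Ctr against WT Ctr, Tnnt1, Tnnt3, Tnni3 and Tnnc1 kept their direction and their call in all alternatives run, and 4 to 5 genes were called when 1 library was left out. Leaving out 1 library gave 2 to 4 genes for the virus in mutants, 2 to 3 for P635L Tnpo3 against WT Ctr, 1 to 2 for P635L Tnpo3 against WT Tnpo3, 1 to 2 for the interaction (2 without WT Ctr replicate 4 or P635L Tnpo3 replicate 4) and 0 for the virus in WT. Without the 3 libraries with more Xist than Y counts, 4 genes were called between P635L Tnpo3 and WT Ctr and 1 between P635L Tnpo3 and WT Tnpo3. Upper-quartile factors and a fit to only the libraries compared also left 1 there, where Tnnt1 was lost. For the interaction 4 genes were called by DESeq2 and 3 without the libraries rich in ENSMUSG00000119584. With the replicate number as a block, 1 gene was called between P635L Tnpo3 and WT Tnpo3, Tnnt1 being lost at -0.59 (edgeR adjusted p = 0.0595), and no other count of genes moved. Deviations of same-numbered libraries from their group means correlated at 0.096, 0.108, 0.276 and 0.552 between WT groups, where 3 of 4 numbers matched their own best, a hint from the data and not the design, and between -0.228 and 0.157 in the other comparisons. Not all were over 0.1 in any comparison, so the numbers were not taken to pair the samples. The cause of these shifts was not tested.

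Splicing calls between P635L Ctr and WT Ctr were 1 by the authors' rMATS FDR, 2 with a mean of at least 1 junction read, and 0 to 1 when 1 listed library was left out (1 without WT Ctr library 2 or P635L Ctr library 3). With no minimum difference 1 was called between P635L Tnpo3 and WT Ctr. No replicate block was fitted to events, since the listed positions carry no numbers. Directions that turned were all of differences without a call. They were Tnni1 with the virus in WT (-0.0139) and Tnnt2 between P635L Tnpo3 and WT Tnpo3 (0.0031) without the libraries with more Xist, and, over the fits that leave out 1 library, Tnni1 between P635L Tnpo3 and WT Tnpo3 (-0.0897 to 0.27) and the Tnnt2 interaction (-0.0398 to 0.1657). Inclusion differences that turned in the same way included those of the Tnnt1 33-base exon between P635L Tnpo3 and WT Ctr (-0.03 to 0.0057) and, between WT groups, of the Tnnt1 33-base exon (-0.019 to 0.0153, turning at 0.001, 0.0103 and 0.0153), the Tnnt2 9-base exon (-0.006 to 0.0097, turning at -0.006 and -0.0043), the Tnnt1 acceptor (-0.0107 to 0.0535, turning at -0.0107 and -0.0015), the Tnnt2 32-base exon (-0.0061 to 0.0002) and the Tnnt2 30-base exon (-0.0001 to 0.0006). Tnnc2 was too low to be tested.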
